A study of Mus musculus with 14 samples.

Results

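Macrophages and neutrophils are the myeloid cells that clear damaged muscle and accompany its repair. Their presence in whole muscle can be followed through genes that muscle fibres use little, and 34 such genes were examined here out of 49585 in the deposited tables. They were taken by symbol. Genes of leukocyte identity were Ptprc, Itgam, Itgb2, Cd53, Laptm5 and Spi1. Receptors and other markers of macrophages and monocytes were Cd68, Adgre1, Csf1r, Cd14, Cd163, Mrc1, Aif1, Mpeg1, Cx3cr1 and Ccr2. Fc receptors, adaptors and an adaptor-linked receptor were Fcgr1, Fcgr3, Fcer1g, Tyrobp and Trem2. The complement C1q chains were C1qa, C1qb and C1qc, and the lysosome and oxidase enzymes Lyz2, Ctss, Cybb and Ncf1. Genes high in macrophages at damaged tissue were Lgals3, Gpnmb and Spp1, and neutrophil genes S100a8, S100a9 and Csf3r.

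In injured muscle, neutrophils arrive first, followed by blood monocytes that carry Ccr2 and become macrophages, while resident macrophages, which carry Csf1r, Mrc1 and Cd163 and make C1q, are present at rest. The factor PU.1, encoded by Spi1, binds the promoters and enhancers of many myeloid genes. The colony stimulating factor receptor encoded by Csf1r keeps macrophages alive.

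RNA was sequenced from skeletal muscle of the mouse hind limb, either wild type (WT) or knockout (KO) for Myf6, a transcription factor of the myogenic family also called MRF4. Each genotype had 3 uninjured and 3 injured libraries, so there were 12 libraries in 4 groups. The uninjured and injured libraries of a genotype carry the same 3 numbers with the letters L and R, which are read as the 2 sides of 1 animal, while WT and KO animals differ, so genotype and any difference of litter or batch cannot be told apart. The kind of injury, the time after it, the strain, age and sex, and how the knockout was made are not stated in the labels. The labels also do not say how the animals were bred, and p-values measure only the spread between these libraries.

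The recovered depth was 1880087 reads in uninjured WT replicate 2 and between 12704445 and 49392471 reads in the other 11 libraries. Values are in RPM, the reads of a gene per 1000000 reads assigned to genes, and 3 reads, taken as the limit of detection, were worth 0.0607 to 1.60 RPM. These limits cover counting error only. Both libraries with the number 2 in uninjured muscle stood apart: 48 genes in the WT library and 103 in the KO library were at 0 reads although they were at 1 RPM or more in every other library, against 0 or 1 such genes in the other 10. Of the genes studied, Fcgr1, Trem2, S100a8 and Csf3r had 0 reads in that WT library, and Ptprc, Cd14, Cx3cr1, Cd53 and Csf3r had 0 reads in that KO library. Myf6, the targeted gene, was at 25.0 to 121 RPM in the 6 WT libraries and at 1.86 to 3.46 RPM in the 6 KO libraries, so each library matched its genotype label. The label of injury could not be checked as directly. Of 8 genes of regenerating muscle tested, 6 had estimates above 0 in injured WT muscle, as did 62.4% of all genes. Their median was 0.47 on the log2 scale against 0.09 for all genes, and 0 passed adjustment. In injured KO muscle 5 of the 8 were above 0, where 80.9% of all genes were. The KO median was 0.32 against 0.29 for all genes, and 0 passed adjustment. The embryonic myosin heavy chain Myh3 overlapped, at 1.06 to 1.52 RPM in uninjured and 0.69 to 1.58 RPM in injured WT muscle, while the perinatal chain Myh8 was higher without overlap, at 646 to 1019 and 1038 to 1762 RPM. In KO muscle Myh8 overlapped, at 1246 to 2322 RPM uninjured and 778 to 2173 RPM injured.

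Promoter sequences are shown first for the genes that were lower without overlap in KO muscle in at least 1 injury state, as described further on, and that hold the core of the PU.1 motif close to their start. The motif searched was GAGGAA, or TTCCTC on the other strand. Of 27 genes with a promoter entry in the RefSeq table of assembly GRCm38.p6, 16 (59.3%) held it within 250 bases before a transcription start, compared with 25.9% of 27025 genes with an entry. Adgre1, Csf1r, Cd14, Tyrobp, C1qa, Spi1 and Itgb2 had no entry. The E-box CAGCTG, which myogenic factors such as Myf6 can bind and which reads the same on both strands, was present in 6 of the 27 (22.2%) and in 14.7% of all genes. The 100 bases before the start are given 5′ to 3′ on the strand of the gene, with the PU.1 core in capitals. They lie at chr2:14229314-14229413 on the plus strand for Mrc1, and on the minus strand at chr1:171059404-171059503 for Fcgr3, chr3:96293970-96294069 for Fcgr1, chr3:106790150-106790249 for Cd53, chr4:136886201-136886300 for C1qb and chr17:35176053-35176152 for Aif1.
Mrc1: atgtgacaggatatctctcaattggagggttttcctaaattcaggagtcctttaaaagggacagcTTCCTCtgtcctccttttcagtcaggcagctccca
Fcgr3: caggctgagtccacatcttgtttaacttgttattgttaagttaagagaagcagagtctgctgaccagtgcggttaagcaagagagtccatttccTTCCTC
Fcgr1: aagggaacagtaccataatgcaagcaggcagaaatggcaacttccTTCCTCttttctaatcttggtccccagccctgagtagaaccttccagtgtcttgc
Cd53: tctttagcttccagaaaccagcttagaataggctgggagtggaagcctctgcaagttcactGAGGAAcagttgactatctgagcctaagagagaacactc
C1qb: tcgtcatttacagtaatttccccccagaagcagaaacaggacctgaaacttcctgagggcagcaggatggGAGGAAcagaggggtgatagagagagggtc
Aif1: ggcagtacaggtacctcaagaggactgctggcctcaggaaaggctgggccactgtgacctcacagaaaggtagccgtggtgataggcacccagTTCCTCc
In these 6 windows the core lies between 6 and 55 bases before the start, counted to its first base. A match describes the letters only and does not show that PU.1 binds there.

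The summed level of the 34 genes was used as an overview before any single gene. In uninjured muscle it was 412, 225 and 371 RPM in WT and 204, 141 and 213 RPM in KO. In injured muscle it was 353, 240 and 341 RPM in WT and 240, 297 and 238 RPM in KO. The uninjured KO libraries were therefore below the uninjured WT libraries without overlap, with means of 186 ± 39.2 and 336 ± 98.1 RPM (SD, n = 3 each), whereas the injured groups overlapped at 258 ± 33.4 and 311 ± 61.6 RPM (SD, n = 3 each). In bulk muscle, fewer myeloid cells and less myeloid RNA per cell cannot be told apart.

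**Figure D1:**
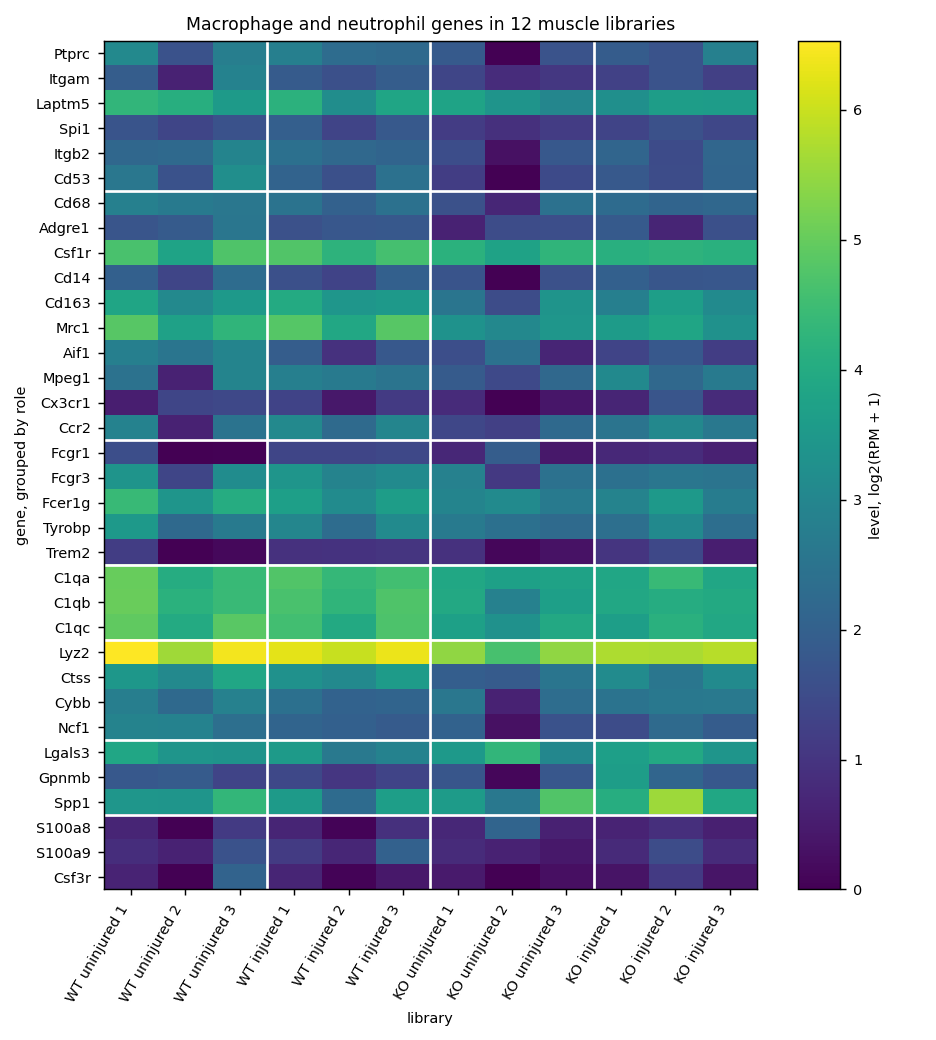
Levels of the 34 genes (rows, grouped by role, white lines between roles) in 12 libraries (columns), as log2(RPM + 1) in colour. Uninjured KO replicate 2 is the darkest column for many genes, and the 3 neutrophil genes at the bottom are at 3.31 RPM or less in every library.

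The first comparison asked how these genes differ between injured and uninjured muscle in WT mice. No rise of the myeloid genes was detected. Differences were tested with limma on log2(RPM + 1) across all genes that reached 1 RPM in 3 or more libraries, with Benjamini-Hochberg adjustment at 0.05. Of 32 genes tested, 0 passed (all adjusted p 1), as did 0% of all 13337 genes, and edgeR and DESeq2 called 0 as well. Estimates were below 0 for 19 and above 0 for 13, where 37.6% of all genes were below and 62.4% above, with a median of -0.10 on the log2 scale against 0.09 for all genes. For 24 of the 32 the 95% interval lay below a difference of 1 on the log2(RPM + 1) scale, and for 26 with the animal as a block. A difference of 1 on that scale is more than a 2-fold rise in RPM, above all at low levels. Smaller rises, which can include a 2-fold rise, were therefore not excluded for all of these genes. Without uninjured WT replicate 2 the estimate was below 0 for 27 of the 32, and without injured WT replicate 2 for 13.

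A few macrophage genes were lower in all injured WT libraries. Cd68, Aif1 and Ncf1 were lower without overlap, 3 of the 34 genes, against a background of 2.54% of all genes tested. None of the 34 was higher without overlap, against 7.48% of all genes. Aif1, an actin-binding protein of macrophages also called Iba1, was at 6.05, 4.79 and 6.69 RPM in uninjured and 2.78, 0.898 and 2.45 RPM in injured WT muscle. All 3 animals had the lower value on the injured side, with a difference of -1.22 (SE 0.42, limma unadjusted p 0.0126, adjusted p 1), the 1 gene of the list with an unadjusted p under 0.05 where 0.457% of all genes were lower and 0.832% higher at that level. Ncf1, a subunit of the phagocyte oxidase, was at 6.63, 6.38 and 4.25 RPM in uninjured and 3.30, 3.03 and 2.68 RPM in injured WT muscle.

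In KO mice the injured libraries were mostly above the uninjured ones, but no gene of the list passed the adjusted test. Estimates were above 0 for 30 of 32 genes with a median of 0.51, where 80.9% of all genes tested were above and 19.1% below 0, with a median of 0.29. Leaving out 1 library moved the median of the list to between 0.25, without uninjured KO replicate 2, where all genes were at 0.10, and 0.71, without uninjured KO replicate 1, where all genes were at 0.32. The lean to higher values was therefore shared by most of the transcriptome. With upper quartile or TMM scaling the median of all genes moved to 0.05, and 22 of the 32 were above 0 with a median of 0.28. By limma, edgeR and DESeq2, 0 of the 32 passed (limma adjusted p 0.728 to 0.957), as did 0% of all genes. Only Ctss and Gpnmb had a limma unadjusted p under 0.05, both higher, 2 of 32 against 3.41% of all genes, and 0 were lower, against 0.0975%. With the animal as a block, 6 were higher at that level (Gpnmb, Ptprc, Ctss, Cd53, Ccr2 and Lyz2), against 6.43% of all genes, and 0 passed adjustment.

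The genes that separated injured from uninjured KO muscle were Lyz2, Cd14, Ctss, Mpeg1, Ccr2, Spi1, Gpnmb and Cd53. These 8 of 34 were higher in all 3 injured KO libraries, against 6.12% of all genes tested, and 0 were lower, against 0.622%. The count was also 8 without uninjured KO replicate 2, with a background of 7.74%, and 16 without uninjured KO replicate 1, with a background of 12.3%. Ctss, the lysosomal protease cathepsin S, was at 2.85, 2.68 and 4.77 RPM in uninjured and 7.87, 4.87 and 7.65 RPM in injured KO muscle, higher on the injured side in 3 of 3 animals. Its difference was 0.82 (SE 0.31, limma adjusted p 0.728). Ccr2, the chemokine receptor of blood monocytes, was at 1.64, 1.34 and 3.72 RPM in uninjured and 4.68, 7.25 and 5.08 RPM in injured KO muscle. In WT it was at 6.44, 0.532 and 4.64 RPM uninjured and 7.35, 3.82 and 6.81 RPM injured, and it was higher on the injured side in all 6 animals. The value of 0.532 RPM is 1 read, below the limit of 1.60 RPM in that library.

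Within animals, 11 of the 34 genes were higher on the injured side in all 3 KO animals and 1 was lower in all 3, while 19.8% of all genes tested were higher and 3.85% lower. In WT animals 2 of the 34 were higher and 10 lower in all 3, while 17.5% of all genes were higher and 8.5% lower. The interaction of genotype and injury asked whether these differences themselves differ. For 29 of 32 genes the estimate was above 0, with a median of 0.52 against 0.20 for all genes, of which 68.1% were above and 31.9% below 0. With 1 library left out this median ran from 0.31, without uninjured KO replicate 2, to 0.81, without uninjured WT replicate 2, where all genes were at 0.01 and 0.30. With upper quartile and TMM scaling, 26 and 24 of the 32 were above 0 and the median of all genes was 0.03 and 0.02. None passed by limma (all adjusted p 0.99989, 0% of all genes), edgeR or DESeq2. Gpnmb (1.71), Ncf1 (1.29) and Ctss (0.96) had a limma unadjusted p under 0.05, all above 0, against 1.3% of all genes, and 0 were below, against 0.262%. The 3 uninjured KO libraries enter both this interaction and the comparison of genotypes at rest, so they are not independent of each other.

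**Figure D2:**
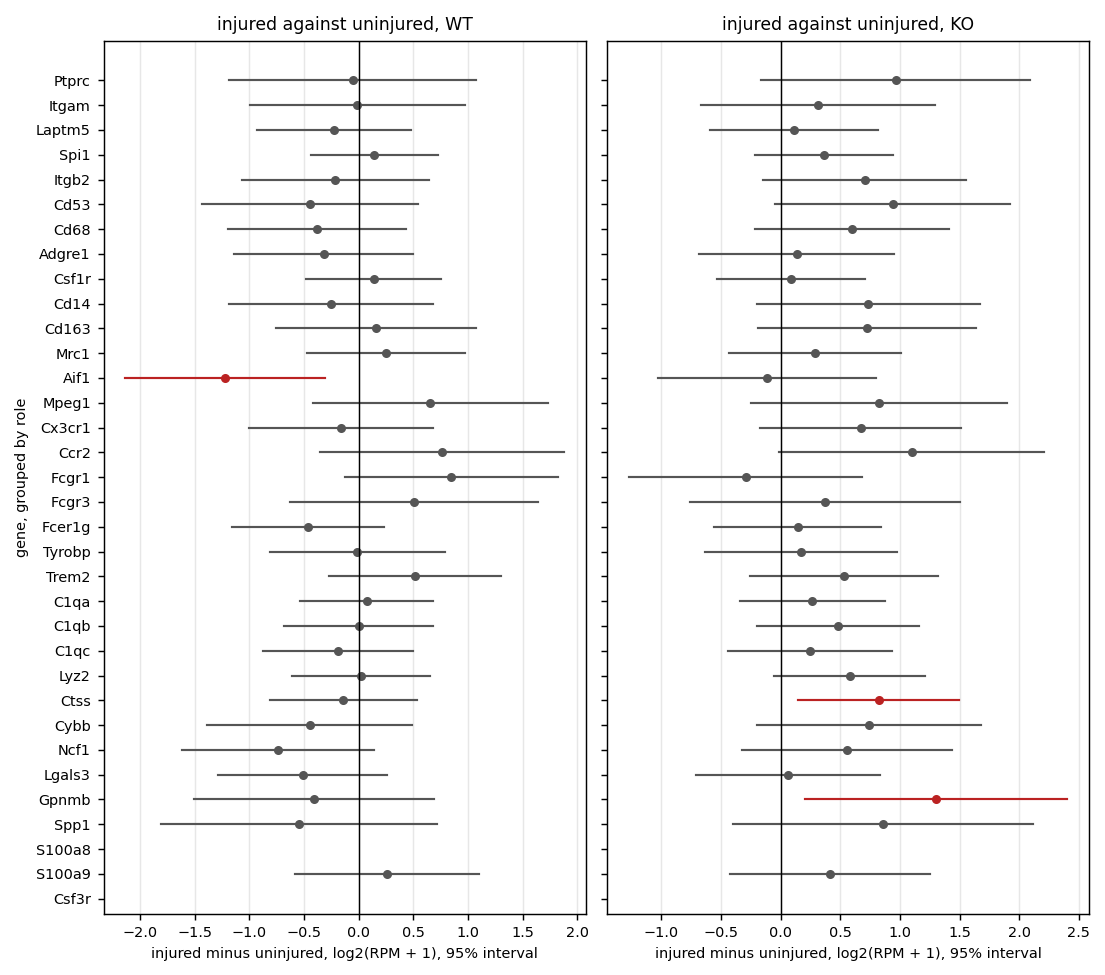
Injured minus uninjured difference on the log2(RPM + 1) scale for each gene tested, in WT (left) and KO (right), with 95% intervals from limma. Red marks an unadjusted p under 0.05, and no gene passed adjustment. In WT the intervals of 31 of 32 genes include 0, and in KO 30 of 32 estimates are above 0.

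The genotypes were then compared in uninjured muscle, which asked whether myeloid genes differ at rest when Myf6 is missing. Nearly all estimates were lower in KO. Of 28 genes tested, 27 had an estimate below 0, where 63.2% of all 12460 genes tested were below and 36.8% above 0, and the median was -0.80 against -0.18 for all genes. By limma 0 passed the adjusted test (lowest adjusted p 0.173), as 0.281% of all genes did. At an unadjusted p under 0.05, 12 were lower and 0 higher, against 10.7% lower and 3.53% higher among all genes. Among the 34, 14 were lower in all KO libraries than in any WT library, against 15.5% of all genes tested, and 0 were higher, against 6.2%. EdgeR passed 0 of the 28, where it passed 0.441% of all genes, and DESeq2 passed 1, Ctss, where it passed 5.33% of all genes. The q-value that the authors deposited for Ctss was 0.118, above 0.05.

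Scaling and single libraries moved these figures in part. With upper quartile, TMM and non-mitochondrial scaling, 26, 26 and 28 of the 28 were below 0, with all genes at a median of -0.08, -0.02 and -0.32. Without uninjured KO replicate 2 the median was -0.64 and that of all genes 0.00, so the list stood as far below all genes as with it. The count at an unadjusted p under 0.05 was 3 without uninjured WT replicate 1 or 3. Of all genes, 875 of 12056 and 1284 of 12071 were at that level in either direction. The count of the list was 7 and 6 when KO replicate 1 or 2 was left out, where 1167 of 12162 and 2062 of 12277 genes were. The list counts at that level without WT replicate 2 or KO replicate 3 are not given here. The count without overlap was 26 without uninjured WT replicate 2, against 26.5% of all genes.

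In injured muscle most estimates were again below 0 in KO. Of 31 genes tested, 25 had an estimate below 0, where 48% of all 12625 genes were below and 52% above 0, with a median of -0.27 against 0.01 for all genes. The median was -0.17 without injured WT replicate 1 and -0.44 without injured WT replicate 2. By limma 0 passed (lowest adjusted p 0.333), where 0.269% of all genes did, and by edgeR 0 passed, where 0.261% did. DESeq2 passed 2, Gpnmb and Fcgr1, where it passed 3.39% of all genes. The q-values that the authors deposited for these 2 were 0.1325 and 0.378, above 0.05. At an unadjusted p under 0.05, 5 were lower and 2 higher, against 5.26% and 5.06% of all genes. Lyz2, Mrc1, Fcgr1, Fcgr3 and C1qb were lower without overlap, 5 of 34 against 8.63% of all genes. Cybb, Gpnmb and Spp1 were higher without overlap, 3 of 34 against 8.29%. Leaving out injured KO replicate 2 gave 2 limma calls among the 29 genes then tested, Mrc1 and C1qa, where 19% of all genes passed, and 11 genes lower without overlap, against 26.3% of all genes. Leaving out injured WT replicate 2 gave 14 lower without overlap, against 14.1%.

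Lyz2, Mrc1 and C1qb were lower without overlap in both injury states, 3 of 34, where 3.16% of the 12214 genes tested in both states were. These 3 and the other genes are described by role in what follows.

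**Figure D3:**
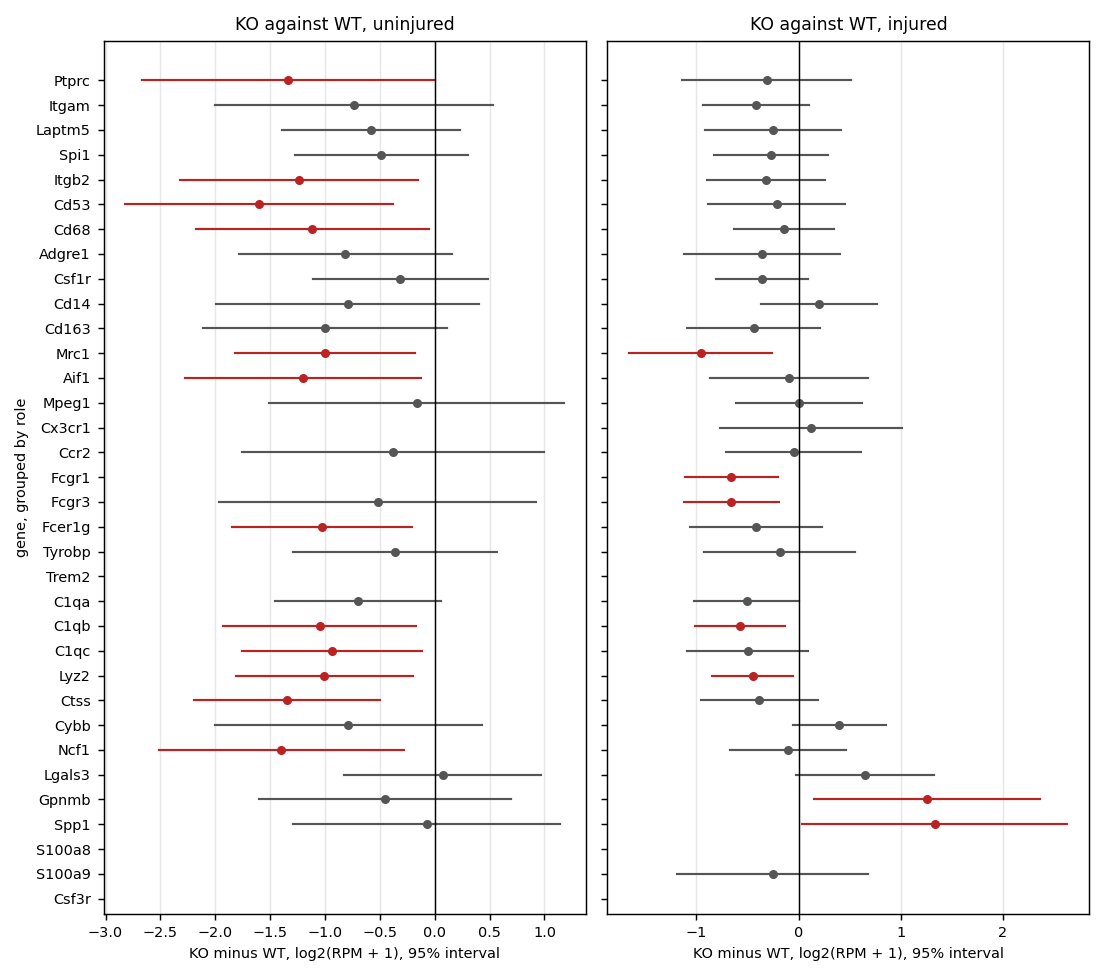
KO minus WT difference on the log2(RPM + 1) scale for each gene tested, in uninjured (left) and injured (right) muscle, with 95% intervals from limma. Red marks an unadjusted p under 0.05, and no gene passed adjustment. In uninjured muscle 27 of 28 estimates are below 0, while in injured muscle Gpnmb and Spp1 are above 0 at 1.26 and 1.33.

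Among the genes of leukocyte identity, all 6 had estimates below 0 in KO in both states, with medians of -0.99 in uninjured and -0.29 in injured muscle. Of all genes tested, 63.2% were below 0 in uninjured and 48% in injured muscle, with medians of -0.18 and 0.01. Cd53 (ENSMUSG00000040747.9), a membrane tetraspanin of white blood cells, was at 5.02, 2.13 and 8.30 RPM in uninjured WT and at 1.29, 0 and 1.75 RPM in uninjured KO. The KO libraries were all below the WT libraries, with a difference of -1.60 (SE 0.54, limma adjusted p 0.230). After injury the groups overlapped, at 3.23, 2.02 and 4.44 RPM in WT and 2.54, 1.88 and 3.34 RPM in KO. Ptprc, which encodes the pan-leukocyte surface phosphatase CD45, was at 7.4985, 2.13 and 5.93 RPM in uninjured WT and at 2.62, 0 and 2.17 RPM in uninjured KO, and these ranges overlapped. Itgb2, the beta chain of the leukocyte integrins, was at 3.54, 3.72 and 6.72 RPM against 1.94, 0.236 and 2.48 RPM, without overlap. Its difference was -1.24 (SE 0.48, limma adjusted p 0.289), and -0.78 without uninjured KO replicate 2. Spi1 was lower without overlap as well, at 2.22, 1.60 and 2.11 RPM in WT and 1.26, 0.866 and 1.24 RPM in KO, where the lowest WT value rests on 3 reads. Itgam, which pairs with Itgb2 as CD11b, ranged from 0.532 to 6.49 RPM over the 12 libraries and Laptm5, a lysosomal membrane protein of blood cells, from 6.99 to 18.6 RPM, both with overlap between genotypes in both states.

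Among the 10 macrophage and monocyte markers, the 9 tested in uninjured muscle all had estimates below 0 in KO, with a median of -0.81. Of all genes tested there, 63.2% were below 0, with a median of -0.18. Mrc1 (ENSMUSG00000026712.3), the mannose receptor of resident macrophages, separated the genotypes in both states. It was at 27.5, 12.2 and 18.4 RPM in uninjured WT and 9.13, 7.32 and 9.87 RPM in uninjured KO. In injured muscle it was at 27.2, 14.2 and 27.4 RPM in WT and 10.9, 13.2 and 8.85 RPM in KO. All 6 KO values were below those of WT in the same state, with differences of -0.998 (SE 0.36, limma adjusted p 0.256) at rest and -0.96 (SE 0.29, adjusted p 0.352) after injury. The interaction estimate for Mrc1 was 0.04, with a 95% interval of -0.98 to 1.06.

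Csf1r (ENSMUSG00000024621.15) did not separate the genotypes. It was at 24.2, 12.8 and 25.6 RPM in uninjured WT and 17.1, 12.7 and 18.4 RPM in uninjured KO, and at 25.9, 17.7 and 23.3 RPM against 16.2, 17.8 and 16.8 RPM in injured muscle. The ranges overlapped in both states. The 95% intervals of the KO minus WT difference, -1.11 to 0.48 uninjured and -0.81 to 0.09 injured, include the medians of the list in those states. Cd68, a lysosomal glycoprotein of macrophages, was at 6.24, 5.32 and 5.01 RPM in uninjured WT and 2.05, 0.630 and 4.44 RPM in uninjured KO, without overlap. In injured muscle Cd68 overlapped, at 4.65, 3.07 and 4.44 RPM in WT and 3.85, 3.26 and 3.503 RPM in KO. Aif1 was lower without overlap in uninjured KO, at 1.98, 4.41 and 0.608 RPM against the WT values given above, with a difference of -1.20 (SE 0.48, limma adjusted p 0.300), and of -0.76 without uninjured KO replicate 3. Adgre1, the F4/80 antigen, was at 2.32, 2.66 and 4.88 RPM in uninjured WT and 0.533, 1.89 and 1.96 RPM in uninjured KO, also without overlap. Cd163, the haemoglobin scavenger receptor, overlapped at 13.4, 7.45 and 10.4 RPM in WT and 4.79, 1.89 and 9.38 RPM in KO. The other 4, Cd14, Mpeg1, Cx3cr1 and Ccr2, overlapped between genotypes in both states.

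The Fc receptors Fcgr1 and Fcgr3 bind antibody and signal through the adaptor Fcer1g, while Tyrobp is an adaptor of other receptors. Fcer1g was at 20.1, 9.57 and 15.6 RPM in uninjured WT and 6.77, 7.71 and 5.47 RPM in uninjured KO, without overlap, with a difference of -1.02 (SE 0.36, limma adjusted p 0.248). Tyrobp overlapped, at 10.4, 3.72 and 5.501 RPM against 5.40, 4.33 and 3.81 RPM. In injured muscle the receptors themselves separated the genotypes. Fcgr3 was at 9.68, 6.55 and 7.65 RPM in injured WT and 4.31, 4.87 and 4.72 RPM in injured KO, with a difference of -0.66 (SE 0.20, limma adjusted p 0.343). In uninjured muscle Fcgr3 overlapped, with WT at 9.37, 1.60 and 8.04 RPM and KO at 6.28, 1.10 and 4.40 RPM. Fcgr1, the high-affinity receptor, was at 1.58, 1.57 and 1.68 RPM in injured WT and 0.696, 0.775 and 0.506 RPM in injured KO, a difference of -0.66 (SE 0.19, limma adjusted p 0.333). Uninjured Fcgr1 values scattered widely, at 1.96, 0 and 0.0329 RPM in WT and 0.647, 2.83 and 0.327 RPM in KO. The value of 0.0329 RPM is 1 read in a library of 30357234 reads, where 3 reads are worth 0.0988 RPM. Trem2, a lipid-sensing receptor that signals through Tyrobp, was at 1.29, 0 and 0.0988 RPM in uninjured WT and 0.900, 0.936 and 0.995 RPM in injured WT. The uninjured WT values of 0 and 0.0988 RPM rest on 0 and 3 reads. In KO, Trem2 was at 0.913, 0.0787 and 0.257 RPM uninjured and 1.02, 1.66 and 0.466 RPM injured. Injured and uninjured values overlapped in both genotypes. Neither Fcgr1 nor Trem2 was tested at rest, because too few libraries reached 1 RPM.

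The C1q chains form the first component of the classical complement pathway and are made by tissue macrophages. All 3 were lower without overlap in uninjured KO, as were 15.5% of all genes tested. C1qa was at 31.3, 15.4 and 20.03 RPM in uninjured WT and 13.8, 12.04 and 12.5 RPM in KO. C1qb (ENSMUSG00000036905.8) was at 31.8, 17.0 and 20.7 RPM against 14.3, 6.30 and 11.9 RPM. C1qc was at 29.4, 14.9 and 28.3 RPM against 12.2, 8.89 and 14.5 RPM. The differences were -0.70 (SE 0.34), -1.05 (SE 0.39) and -0.94 (SE 0.36), with limma adjusted p values of 0.385, 0.264 and 0.287. In injured muscle C1qb was without overlap, at 24.0, 18.2 and 25.6 RPM in WT and 14.1, 15.4 and 14.8 RPM in KO, with a difference of -0.57 (SE 0.19, limma adjusted p 0.378). Injured C1qa was at 26.03, 19.4 and 22.6 RPM in WT and 13.6, 20.1 and 13.7 RPM in KO, where replicate 2 of KO lies within the WT range. Injured C1qc overlapped in the same library, at 22.4, 14.6 and 25.2 RPM against 11.8, 16.8 and 13.97 RPM.

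The lysosome and oxidase enzymes were the group with the lowest median at rest, -1.18 over 4 genes, against -0.18 for all genes. Lyz2 (ENSMUSG00000069516.7), the lysozyme of macrophages and neutrophils, was at 91.5, 47.3 and 84.3 RPM in uninjured WT and 42.8, 23.6 and 42.6 RPM in uninjured KO. In injured muscle it was at 76.0, 62.4 and 80.6 RPM in WT and 52.1, 50.9 and 55.8 RPM in KO. Genotypes did not overlap in either state, and the differences were -1.01 (SE 0.36, limma adjusted p 0.249) and -0.45 (SE 0.17, limma adjusted p 0.430). Ctss (ENSMUSG00000038642.10) was at 10.0, 7.45 and 13.5 RPM in uninjured WT, above the uninjured KO values given above, with a difference of -1.35 (SE 0.38, limma adjusted p 0.173). Injured WT muscle held Ctss at 8.85, 7.49 and 11.02 RPM, which overlaps with injured KO. Ncf1 in uninjured KO was at 3.16, 0.236 and 2.15 RPM, all below WT, with a difference of -1.40 (SE 0.50, limma adjusted p 0.248), and of -0.88 without uninjured KO replicate 2. Injured Ncf1 overlapped, with KO at 1.87, 3.76 and 2.75 RPM. Cybb, the catalytic subunit of the oxidase, overlapped at rest, at 5.99, 3.72 and 6.32 RPM in WT and 5.02, 0.551 and 4.02 RPM in KO. In injured muscle it was higher in KO without overlap, at 4.66, 5.15 and 5.28 RPM against 4.35, 3.14 and 3.29 RPM.

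**Figure D4:**
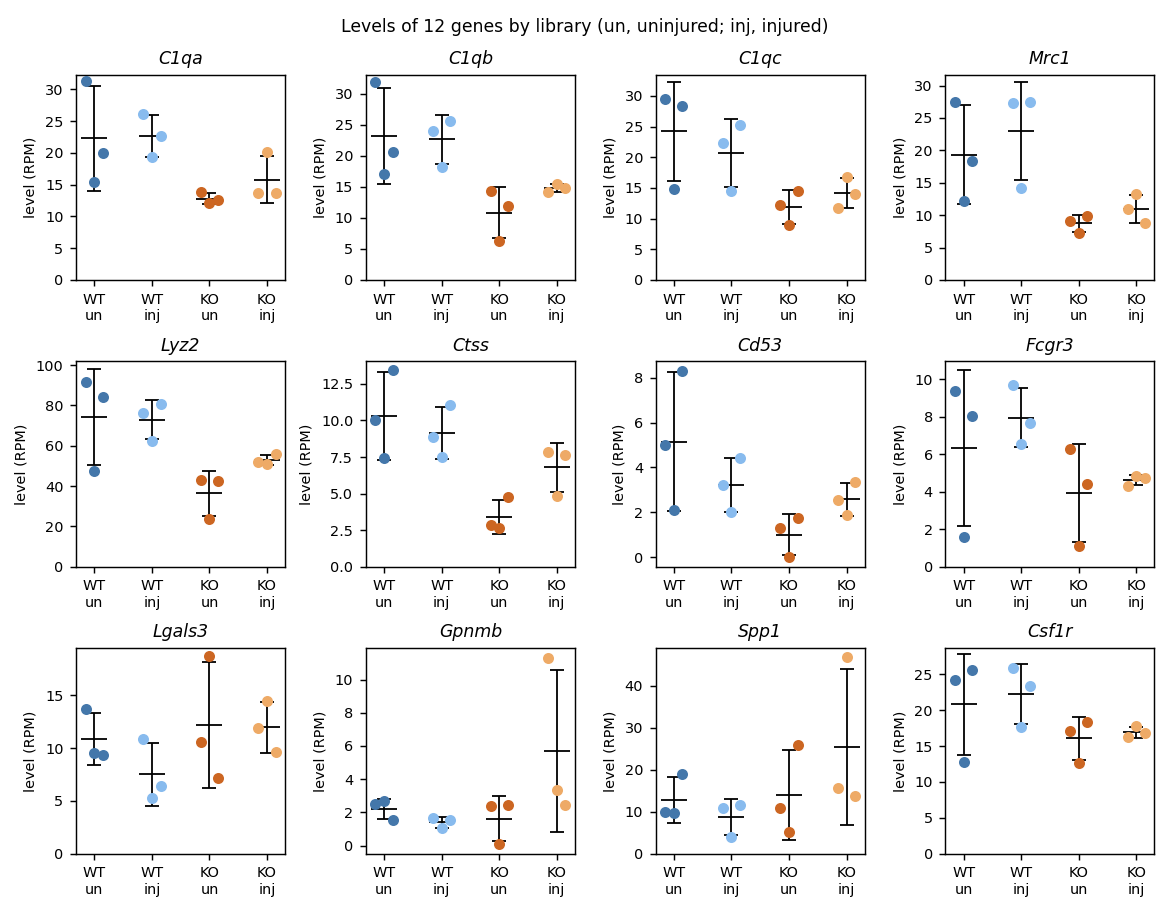
Levels in RPM (linear axes) of 12 genes in each library, with the 4 groups on the horizontal axis; bars are the mean and SD of 3 libraries. Lyz2, Mrc1 and C1qb are below WT in all KO libraries of both states, and Gpnmb and Spp1 reach 11.3 and 46.8 RPM in single injured KO libraries.

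Lgals3, Gpnmb and Spp1 are raised in macrophages that take up lipid and debris, and fibres or other cells can make Lgals3 and Spp1 too. Their estimates had the other sign in injured KO muscle. In uninjured muscle their median difference was -0.07, against -0.18 for all genes. In injured muscle all 3 had estimates above 0 in KO, where 52% of all genes did. Gpnmb (ENSMUSG00000029816.10), a transmembrane glycoprotein of lysosome-rich macrophages, was at 1.65, 1.05 and 1.53 RPM in injured WT and 11.3, 3.38 and 2.47 RPM in injured KO. The difference was 1.26 (SE 0.47, limma adjusted p 0.430) without overlap, and 0.70 without KO replicate 1, the library at 11.3 RPM. In uninjured muscle Gpnmb was at 2.48, 2.66 and 1.52 RPM in WT and 2.36, 0.0787 and 2.43 RPM in KO, with overlap. Spp1 (ENSMUSG00000029304.14), which encodes the secreted phosphoprotein osteopontin, was at 10.9, 3.89 and 11.6 RPM in injured WT and 15.7, 46.8 and 13.7 RPM in injured KO. The KO values were above WT, with a difference of 1.33 (SE 0.55, limma adjusted p 0.473), which was 0.80 without KO replicate 2, the library at 46.8 RPM. Uninjured Spp1 was at 9.82, 9.57 and 19.0 RPM in WT and 10.99, 5.12 and 25.9 RPM in KO. Lgals3, a galectin, was at 10.9, 5.28 and 6.39 RPM in injured WT and 11.9, 14.4 and 9.62 RPM in injured KO, with overlap and a difference of 0.65 (SE 0.29, limma adjusted p 0.513).

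Neutrophil genes were at low levels in all groups, at 3.31 RPM or less and on 0 to 97 reads per library. S100a8 and S100a9 encode the 2 chains of calprotectin, and Csf3r the receptor for the growth factor of neutrophils. S100a8 was at 0.611, 0 and 1.15 RPM in uninjured WT, 0.600, 0.0374 and 0.880 RPM in injured WT, 0.647, 3.31 and 0.514 RPM in uninjured KO and 0.562, 0.830 and 0.486 RPM in injured KO. S100a9 ranged from 0.351 to 3.10 RPM and Csf3r from 0 to 3.20 RPM over the 12 libraries, and all 3 genes overlapped between injured and uninjured muscle of either genotype. S100a8 and Csf3r reached 1 RPM in too few libraries for the limma tests. In the authors' deposited table their KO against WT p-values were 0.150 and 0.0784 in uninjured and 0.705 and 0.417 in injured muscle, with q-values of 0.986 and 0.994 in those states. Of 15 further neutrophil genes, 12 (Camp, Cxcr2, Elane, Fpr1, Il1b, Ltf, Ly6g, Mmp8, Mpo, Ngp, Padi4 and Retnlg) were under 1 RPM in every library.

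Other macrophage genes, a list of 25 of which 24 were in the tables, leaned the same way as the macrophage members. In uninjured muscle 11 of the 12 tested had estimates below 0 in KO, against 63.2% of all genes, with a median of -0.64. In injured muscle it was 11 of 13, against 48% of all genes, with a median of -0.36. None passed by limma over all genes. At an unadjusted p under 0.05, Ccl6 (-1.37) and Pld4 (-1.19) were lower in uninjured KO, 2 of 12 against 10.7% of all genes, and Folr2 (-0.81) and Clec10a (-0.81) in injured KO, 2 of 13 against 5.26%. Lysosome genes used by many cell types did not share this, with 7 of 10 above 0 in uninjured KO and a median of 0.16. Of the growth factors and chemoattractants for myeloid cells, 4 of 5 tested were below 0 in uninjured KO and 2 of 5 in injured KO, and 0 passed.

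Marker lists of several other cell types moved with genotype at the same time. In uninjured KO 63.2% of all genes tested had estimates below 0 and 36.8% above, and in injured KO 48% and 52%. The endothelium and the mast cell and eosinophil lists leaned little at rest. Of these, 3 of 6 and 3 of 5 genes tested were below 0, with medians of -0.03. In injured KO 5 of 6 and 4 of 5 were above 0. The summed level of 8 muscle fibre genes was 113650 to 124940 RPM in uninjured WT and 162880 to 174920 RPM in uninjured KO, with 7 of 8 estimates above 0, and 117690 to 148510 against 112180 to 157360 RPM in injured muscle. The 6 adipocyte genes were all above 0 in KO in both states, with sums of 900 to 1623 RPM in WT and 1390 to 2336 RPM in KO at rest and 341 to 1034 against 1113 to 2263 RPM after injury. Of 6 fibroblast genes, 5 were below 0 in uninjured KO, with sums of 1304 to 2814 RPM in WT and 1046 to 2010 RPM in KO. Of 5 erythroid genes, which mark blood in the tissue, 4 were below 0 in uninjured KO with a median of -0.67, 2 of them at an unadjusted p under 0.05 (Hbb-bt, -1.68, and Hbb-bs, -0.85), and sums were 335 to 550 RPM in WT and 163 to 401 RPM in KO. In injured muscle 3 of the 5 were below 0, with sums of 167 to 433 and 151 to 583 RPM. Both dendritic cell genes tested were below 0 in uninjured KO (Cd209a, -1.38, and Zbtb46, -0.76), with sums over the 6 genes listed of 13.0 to 16.0 RPM in WT and 3.78 to 8.67 RPM in KO. Of 5 B cell genes 4 were below 0, with overlapping sums of 182 to 398 and 266 to 437 RPM. None of the genes of these lists was at 0 RPM throughout, and their part in the myeloid values was not tested. The share of reads on mitochondrial genes, 13.8 to 22.3% in uninjured WT and 3.63 to 15.3% in uninjured KO, moved as well. With scaling outside those genes the median of the list was -0.96, against -0.32 for all genes.

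Across libraries most of the list varied together. The Pearson correlation of each of the 32 tested genes with the mean log2(RPM + 1) of the other 31 over 12 libraries had a median of 0.75, and 24 genes were above 0.5 and 13 above 0.8. It was 0.96 for Lyz2, 0.91 for C1qb, C1qc, Spi1 and Cd53, 0.25 for Gpnmb, 0.27 for Spp1, -0.16 for Fcgr1 and -0.24 for Lgals3. These points share libraries, depth and the scaling to a common total, and the values are descriptive. The share of all genes that correlate as highly with the list was not counted. Outside the list, the 10 genes most like the mean of the list were Mier1 (r = 0.97), Tmem67, Atp10a, Zfp932, Rbms1, Rab11a, Tmem68, Clec4a2, Efemp1 and Tgfbi (r = 0.95), over 12 libraries. Clec4a2 is a lectin receptor of myeloid cells, whereas Rab11a and Rbms1 are used by many cell types.

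Binding of Flag-tagged Myf6 was measured by ChIP-seq in primary myotubes, in 1 library against 1 control, which are not the cells that express the myeloid genes. Of 27 genes with a start in the RefSeq table, 3 (11.1%) had 1 of the 12898 peaks within 5 kb of a start or in the gene, against 18.8% of 19690 genes and 27.8% of 10003 expressed genes. With peaks of at least 10-fold enrichment only, the same 3 genes (11.1%) stood against 6.79% of all genes and 10.2% of expressed genes. The 3 were Itgam, Mrc1 and Gpnmb. The authors' peak caller gave a fold enrichment of 17.4 for the peak at chr7:128058654-128058861, with its summit 3.90 kb before the start of Itgam, and of 8.70 and 11.9 for a pair of peaks inside that gene. A peak of 11.5-fold lay inside Mrc1 at chr2:14280816-14281002, 51.5 kb from its start, and one of 18.8-fold inside Gpnmb at chr6:49046580-49046795, 10.2 kb from its start. The peak list names no build; the submitters' processing notes name mm10 and GRCm38.p5, which share their main chromosomes with the GRCm38.p6 table.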

How the data were processed

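The authors deposited RPM per gene, scaled to 1000000 per library, in 1 table per injury state. Per the submitters' processing notes, HISAT2 2.1.0, featureCounts, SAMtools, DESeq2 and Bowtie 1.1.0 were used, with no role or order given; strand use and reads with several matches are not given in the sources used here. The deposited log2 fold changes, p-values and q-values are the authors' and served only as an alternative. The file headers name MACS2 2.1.0.20140616 as the peak caller, and per the file headers the peak list holds the signal (pileup), fold enrichment and −log10 p and q. In every library 100% of the low values came out as whole reads within 0.1 read, which gave the depth.

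Tests used limma 3.58.1 under R 4.3.3, two-sided, on log2(RPM + 1) with a mean-variance trend in eBayes, for genes that reached 1 RPM in 3 or more fitted libraries. Genotypes were compared on 6 libraries; injury and the interaction were fitted on all 12, taken as independent, with the animal as a block in an alternative. Differences, KO minus WT or injured minus uninjured, are too small for genes at low levels because of the added 1. Alternatives were edgeR 4.0.16 and DESeq2 1.42.0 on recovered reads, other scalings, filters and a pseudocount of 0.1, a replicate block (the animal for injury and the interaction, the replicate number for genotype) and each library left out. The left-out counts without overlap and the fit without both uninjured libraries numbered 2 were chosen after seeing the data. All 34 genes could be named, from other lists up to 3 genes of lowest p, and the 10 genes most like the list. The members and lists were chosen with earlier results of these data known.

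Uninjured and injured libraries with 1 number were taken as 1 animal from the numbers in the labels. Their deviations from the group means correlated at 0.28, -0.23 and 0.02 in WT and 0.02, 0.50 and 0.63 in KO over 13337 genes. Libraries with different numbers reached 0.31 in WT (uninjured 3 with injured 2) and 0.50 in KO (uninjured 3 with injured 1). These correlations therefore cannot decide whether the pairing is right. No pair of libraries looked like a repeat of the same library, with a lowest mean chi-square per gene of 12.4.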

Additional observations from a re-analysis of the deposited data

Results flagged for a closer look

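Cd14, a receptor for bacterial lipopolysaccharide, and Cd53, a leukocyte tetraspanin, stood out because all 3 WT animals had the lower value on the injured side and all 3 KO animals the higher. Of all genes tested, 8.5% were lower in all 3 WT animals and 19.8% higher in all 3 KO animals. The share of all genes with both was not counted. Cd14 was at 2.99, 1.60 and 3.99 RPM in uninjured and 2.03, 1.498 and 3.02 RPM in injured WT, and at 2.24, 0 and 2.06 RPM in uninjured and 2.998, 2.38 and 2.39 RPM in injured KO. The difference between the genotypes in the injury difference was 0.99 for Cd14 (SE 0.61, limma unadjusted p 0.129) and 1.38 for Cd53 (SE 0.65, limma unadjusted p 0.0523). Neither passed adjustment over 13337 genes (limma adjusted p 0.99989 for both). Both genes were at 0 reads in uninjured KO replicate 2, where the limit of 3 reads is 0.236 RPM, and in the second WT animal the values differed by 0.06 and 0.05 on the log2 scale. The uninjured values of that WT animal rest on 3 reads for Cd14 and 4 reads for Cd53.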

How the results depend on the processing

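In the injury comparisons and the interaction, 0 genes of the list passed under each of the 22 alternatives run for each. In uninjured muscle KO against WT gave 1 call with DESeq2 (Ctss), where 5.33% of all genes passed. The replicate block gave 4 (C1qb, Ctss, Cd53 and Lyz2), where 752 of 12460 genes passed. Their limma adjusted p values were 0.0497, 0.0379, 0.0307 and 0.0254, and over all alternatives 0.0226 to 0.759. In injured muscle DESeq2 gave 2, where 3.39% of all genes passed, and the block changed no other call. The replicate numbers join different WT and KO animals (correlations of 0.04, 0.26 and 0.37 uninjured and -0.45, -0.60 and -0.30 injured), so they share only a number. With each library left out in turn, the median in uninjured muscle ranged from -1.14 (without WT replicate 2) to -0.64, genes lower without overlap from 14 to 26 uninjured and from 5 to 14 injured, calls in injured muscle from 0 to 2, the other medians from -0.44 to -0.17 (KO against WT, injured), 0.25 to 0.71 (injury in KO), -0.30 to 0.07 (injury in WT) and 0.31 to 0.81 (interaction), and genes higher without overlap in injured KO from 8 to 16. Leaving out both uninjured libraries numbered 2 gave 26 genes without overlap, against 30.3% of all genes. Peaks within 20 kb of a start or in the gene were found for 5 genes, against 27.8% of all genes. The cause of these shifts was not tested. No direction of a gene with an unadjusted p under 0.05 reversed. Over all genes, calls in uninjured muscle were 35, from 1 without a filter to 752 with the block. In injured muscle they were 34, from 0 with the block to 2343 without KO replicate 2. Calls in injured muscle were also 0 without WT replicate 1, 2 or 3 and without KO replicate 1 or 3. Depth limits the genes near 1 RPM, above all in uninjured WT replicate 2.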

Other observations

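Cd209a, a C-type lectin of dendritic cells and some macrophages, belonged to the dendritic cell list and was singled out after its values were seen. It was at 1.74, 2.13 and 1.32 RPM in uninjured WT and 2.25, 1.83 and 3.48 RPM in injured WT, on 4 to 91 reads. In KO it was at 0, 0 and 0.117 RPM uninjured and 0, 0 and 0.182 RPM injured, on 0 to 9 reads. The 6 KO libraries did not overlap with the 6 WT libraries. The KO minus WT difference was -1.38 (SE 0.35, limma adjusted p 0.148) in uninjured and -1.71 (SE 0.25, limma adjusted p 0.0689) in injured muscle, so it did not pass the adjusted threshold in either.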
